A study of Drosophila melanogaster with 3 samples.

Results

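Axon guidance and neural adhesion genes encode the secreted cues, surface receptors, adhesion proteins and signalling proteins with which growing axons find their partners. A list of 41 such genes, taken by symbol from 13945 protein-coding genes on 6 chromosome arms, was examined for binding of Empty spiracles (Ems) in *Drosophila melanogaster* embryos. Of the 41, 12 (29.3%) had a binding summit within 1 kb of an annotated transcription start site (TSS), against 22.2% of all genes. In the gene or within 2 kb of it, 21 (51.2%) had at least 1 summit, against 33.7%. For the 30 of them that span 20 kb or more, the shares were 33.3% and 63.3%, against 30.6% and 54.9% of all such genes. The windows of the 41 held 51 of the 3866 summits in the authors' list of reproducible peaks, here called the optimal list. The strongest lay at *lola*, *sli*, *Fas3* and *ena*, while *robo1*, *robo2*, *robo3* and the 4 Dscam genes had none.

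The data are chromatin immunoprecipitation followed by sequencing (ChIP-seq) of whole embryos aged 0 to 24 hours, male and female pooled, in 3 biological replicates of 1 group. The flies were a transgenic line (strain 16T-GFP) that stably expresses Ems with GFP fused to its C-terminus; whether the endogenous *ems* gene was intact is not given in the sources used here. The precipitating antibody recognised GFP according to the description, whereas another label field names ems. No other group exists, and the control library was not analysed here, so shares over the guidance genes are set beside the same shares over all genes or all summits, as descriptions with no test. In whole embryos, strong binding in few cells and weak binding in many cannot be told apart. Peak lists carry no read counts, so depth is unknown.

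Ems is a homeodomain protein needed for the formation of head segments, parts of the brain, tracheae and posterior spiracles. Homeodomains of its kind commonly recognise short sequences with the core TAAT. Axon guidance itself works through pairs of ligand and receptor: Slit repels axons through Robo receptors, Netrins act through Frazzled and Unc-5, and semaphorins act through plexins. The receptors pass the signal to kinases, adaptors and exchange factors that reshape the actin cytoskeleton of the growth cone.

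The DNA under some of these summits is shown first, because the results below turn on where a summit lies and on the letters around it. Each run is 201 bp of the forward strand of the Release 6 (dm6) genome from RefSeq, centred on the summit. Capitals mark matches, on either strand, to any of 10 short motifs: the homeodomain-type cores TAATTA and TAATGA, the promoter element TATCGATA, its variant CGATAG, the promoter element ACACTG, the repeat GAGAGA, the early embryonic motif CAGGTA, and, for comparison of base composition, the palindrome TTTAAA, the repeat TATATA and the palindrome AATATT. Sequences from 1 chromosome arm are not shown, so the first sets are not the strongest summits of all. The first set holds the 3 best-ranked summits at a TSS that were present in every replicate.
*Abl*, chr3L:16647805-16648005: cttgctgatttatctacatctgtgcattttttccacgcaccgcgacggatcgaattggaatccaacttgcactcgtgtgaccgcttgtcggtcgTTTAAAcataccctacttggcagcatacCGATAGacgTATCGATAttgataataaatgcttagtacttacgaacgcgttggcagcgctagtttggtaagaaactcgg
*Lar*, chr2L:19587033-19587233: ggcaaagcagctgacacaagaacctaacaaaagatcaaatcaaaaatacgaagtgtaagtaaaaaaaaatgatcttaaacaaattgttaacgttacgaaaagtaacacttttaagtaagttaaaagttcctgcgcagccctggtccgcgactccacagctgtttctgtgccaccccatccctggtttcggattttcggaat
*dock*, chr2L:825838-826038: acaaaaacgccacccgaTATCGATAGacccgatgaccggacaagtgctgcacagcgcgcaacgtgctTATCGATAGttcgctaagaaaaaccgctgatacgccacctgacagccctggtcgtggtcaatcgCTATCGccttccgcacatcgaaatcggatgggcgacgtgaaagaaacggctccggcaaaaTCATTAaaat
The second set holds the 3 best-ranked intron summits present in every replicate.
*Fas3*, chr2L:18325189-18325389: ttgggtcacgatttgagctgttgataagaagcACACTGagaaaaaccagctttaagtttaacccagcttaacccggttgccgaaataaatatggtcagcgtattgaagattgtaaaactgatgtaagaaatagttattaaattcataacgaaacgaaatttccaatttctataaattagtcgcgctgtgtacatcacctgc
*Ptp10D*, chrX:11623028-11623228: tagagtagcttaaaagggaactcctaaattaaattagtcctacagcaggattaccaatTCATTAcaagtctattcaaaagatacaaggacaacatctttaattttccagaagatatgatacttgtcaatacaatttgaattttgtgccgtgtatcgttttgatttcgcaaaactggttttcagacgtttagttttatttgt
*NetA*, chrX:14627494-14627694: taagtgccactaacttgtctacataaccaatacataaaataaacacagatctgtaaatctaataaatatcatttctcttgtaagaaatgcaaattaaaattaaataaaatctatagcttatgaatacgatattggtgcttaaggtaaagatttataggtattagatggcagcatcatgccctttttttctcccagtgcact
The third set holds, for 4 genes, the best-ranked summit with TAATTA in the window and was chosen for that motif.
*side*, chr3R:27407153-27407353: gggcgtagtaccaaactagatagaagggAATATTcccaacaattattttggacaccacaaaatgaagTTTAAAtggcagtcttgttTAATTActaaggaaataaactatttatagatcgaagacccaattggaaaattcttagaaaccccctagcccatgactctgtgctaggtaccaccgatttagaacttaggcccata
*Ten-a*, chrX:12202310-12202510: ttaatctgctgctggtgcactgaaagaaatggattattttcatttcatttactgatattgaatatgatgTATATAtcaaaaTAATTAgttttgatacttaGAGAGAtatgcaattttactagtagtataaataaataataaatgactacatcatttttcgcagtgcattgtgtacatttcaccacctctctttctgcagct
*Sema1a*, chr2L:8541980-8542180: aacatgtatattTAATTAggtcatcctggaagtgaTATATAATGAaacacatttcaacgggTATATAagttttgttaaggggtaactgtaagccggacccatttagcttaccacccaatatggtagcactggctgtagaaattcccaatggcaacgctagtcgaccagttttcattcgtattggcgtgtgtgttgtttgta
*Ptp99A*, chr3R:29480037-29480237: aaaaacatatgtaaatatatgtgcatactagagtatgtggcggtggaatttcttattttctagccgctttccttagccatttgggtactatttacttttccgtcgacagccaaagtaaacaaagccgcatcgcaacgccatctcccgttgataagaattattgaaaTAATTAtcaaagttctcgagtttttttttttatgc
The *Abl* and *dock* windows carry TATCGATA, and the windows at *Lar* and *NetA* carry none of the 10 motifs. The *Ptp10D* and *Fas3* intron windows hold 1 motif each, TAATGA and ACACTG.

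Guidance genes were bound at a TSS in 12 of 41 cases, or 29.3% (95% exact Clopper-Pearson interval 16.1 to 45.5%, counting error only), against 22.2% of all 13945 protein-coding genes. The genes are long: their median length was 38.9 kb, and 30 of the 41 spanned 20 kb or more, whereas all genes had a median of 2.17 kb and 7.26% were that long. Among genes of at least 20 kb, 10 of 30 guidance genes (33.3%) were bound at a TSS, against 30.6% of all such genes, which is close to the background. Of guidance genes with 3 or more annotated TSSs, 6 of 8 (75.0%) were bound, against 48.2% of all such genes; with 8 genes the interval ran from 34.9 to 96.8%. Counting the whole gene with 2 kb to each side, 21 of 41 (51.2%, interval 35.1 to 67.1%) held a summit, against 33.7% of all genes. For genes of 20 kb or longer the share was 19 of 30 (63.3%), against 54.9%, and the interval for the guidance genes, 43.9 to 80.1%, includes that value.

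**Figure D1:**
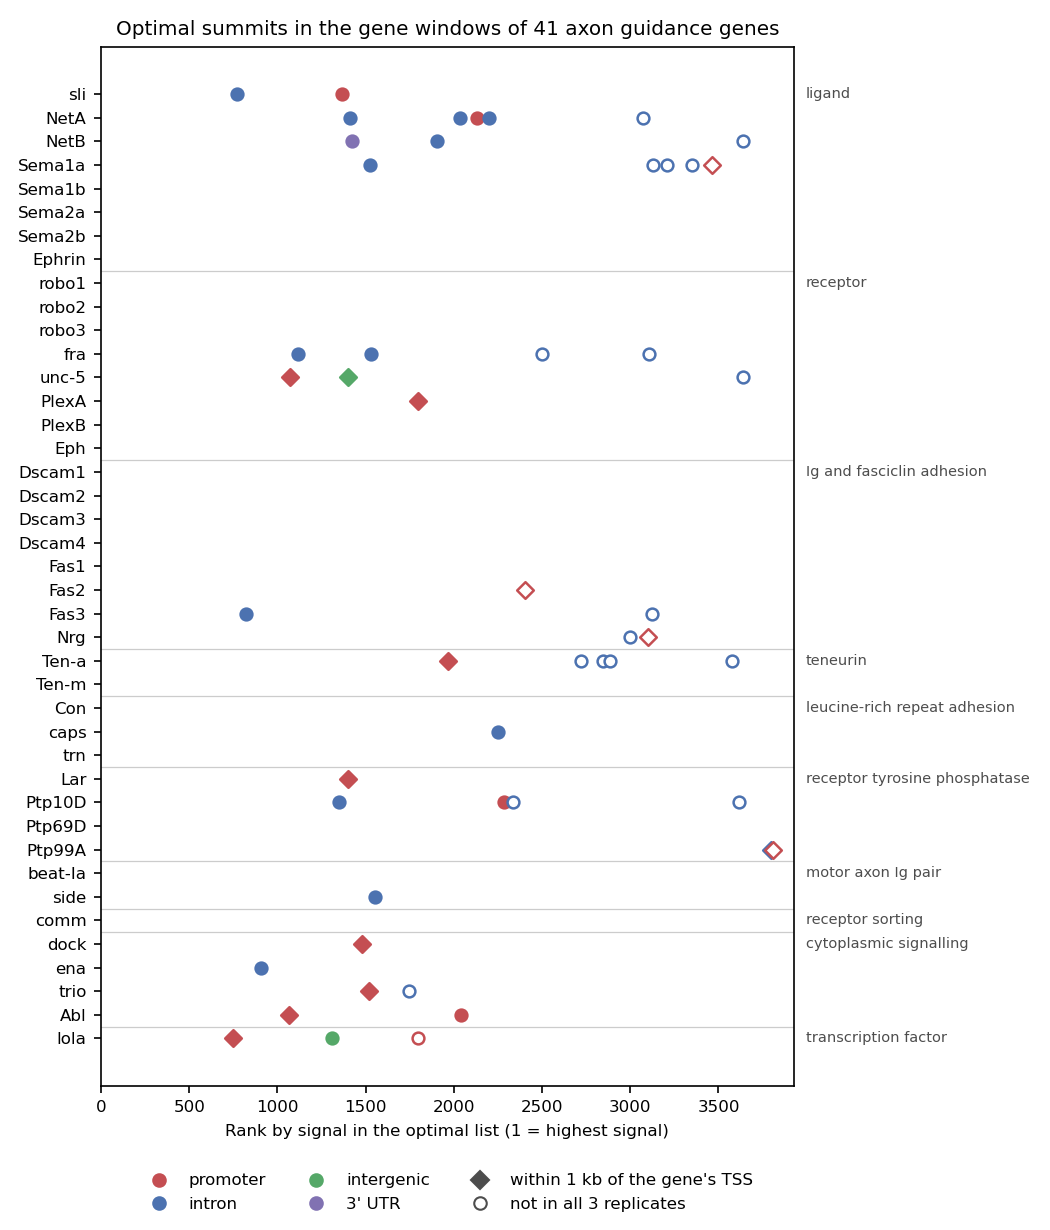
Rank by signal (x axis, 1 is the highest of 3866) of each of the 51 optimal summits in the windows of the 41 guidance genes, with genes down the page by role. Colour gives the annotation class, diamonds mark summits within 1 kb of the gene's own TSS, and open symbols mark summits missing from the top 3866 peaks of at least 1 replicate; no summit ranks above 747, and 20 genes have an empty row.

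The plot of ranks by gene shows that no guidance gene held a peak among the 500 strongest, and that 4 of the 51 summits were among the first 1000. By definition these top sets hold 500 and 1000 of all 3866 summits. Of the 31 intron summits at guidance genes, 0 and 3 were in them. Of the 730 intron summits at genes of 20 kb or longer, 65 and 152 were. The top of the list thus held few guidance summits, a difference that was not tested. The median rank of the 51 was 2039, close to the middle of the list, and 23 lay in the upper 1933. Summits were unevenly spread: 20 genes had 0, 7 had 1 and 14 had 2 or more. *NetA*, *Sema1a* and *Ten-a* had 5 each, the most of any, and *fra* and *Ptp10D* had 4. Those 5 genes held 23 of the 51 summits (45.1%). Across the 41 genes, Spearman's rho between gene length and number of summits was 0.46, as a description, since a longer gene offers a wider window.

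Among the 8 ligand genes, *Sema1a* alone was bound at a TSS, and *sli*, *NetA* and *NetB* held summits elsewhere in the gene. Over all genes 22.2% were bound at a TSS and 33.7% held a summit in their window, or 30.6% and 54.9% at 20 kb or longer. Each role holds 8 genes at most, so nothing is read from differences between roles here or below. *sli*, which encodes the midline repellent Slit, had the second-best summit of the whole set, at rank 769. It lay in an intron, 3800 bp from the nearest *sli* TSS, and ranked 687, 691 and 1100 in replicates 1, 2 and 3. All 3 ranks were well inside the cutoff of 3866.

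The other *sli* summit, at rank 1365, lay 311 bp past the 3' end of the gene and 37 bp from the TSS of the neighbour *Rif1*. *NetA*, which encodes a Netrin, an attractant for commissural axons, carried 4 intron summits over 22.3 kb at ranks 1410, 2033, 2202 and 3075. The strongest of these was 26240 bp from the *NetA* TSS and ranked 1905, 1753 and 1259 in the replicates. The fifth *NetA* summit was 172 bp from the TSS of *sbm*, and so belongs by position to that gene's promoter.

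The paralog *NetB* had its best summit, rank 1423, in the 3' UTR. That summit was the only one of the 51 classed as exonic, and ranked 1648, 1229 and 1748 in the replicates. A second *NetB* summit, at rank 1905, lay in an intron 1507 bp from the TSS of *hog*, and the third, at rank 3640, was missing from the top 3866 peaks of every replicate, with ranks of 4160, 4999 and 4656. Both Netrin genes lie on the X chromosome, and neither had an optimal summit within 1 kb of its own TSS.

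*Sema1a*, a transmembrane semaphorin that serves as ligand for Plexin A, had a weak TSS summit at rank 3464, 67 bp upstream of the first of its 2 TSSs. This summit ranked 4542, 2550 and 3451 in the replicates, so replicate 1 left it out of its top 3866. The strongest *Sema1a* summit was in an intron 31832 bp from the TSS, at rank 1527 overall and 1348, 1293 and 2077 in the replicates. It was the only 1 of the 5 *Sema1a* summits present in all 3 replicates. *Sema1b*, *Sema2a*, *Sema2b* and *Ephrin*, which encode further semaphorins and the fly ephrin, had none.

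The 8 receptor genes divided in a similar way, with *unc-5* and *PlexA* bound at a TSS, *fra* bound in its first intron and 5 without a summit. The shares of all genes were 22.2% at a TSS and 33.7% in the window. *unc-5*, the receptor for repulsion from Netrin, was bound at both of its TSSs. The summit 124 bp upstream of the second TSS had rank 1073, with 1209, 1266 and 903 in the replicates. The other, 853 bp upstream of the first TSS, had rank 1402, with 1906, 2335 and 1167. Both were present in all 3 replicates, and one further summit, in an intron at rank 3638, was present in replicate 3 alone.

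*PlexA*, the receptor for Sema1a, was bound 154 bp upstream of its single TSS on chromosome 4, at rank 1796. Its ranks of 3268, 1095 and 2603 in the replicates differed by a wide margin, but all were above the cutoff. *fra*, the attractive Netrin receptor, had no TSS summit and 4 summits in its first intron within 9.54 kb, at 9223, 11806, 14805 and 18764 bp from the TSS. Their ranks from the nearest outwards were 2500, 1528, 1116 and 3104, and the middle pair was present in every replicate. All 4 were nearer to the TSS of *CG33752*, at 7413, 4830, 1831 and 2128 bp, than to that of *fra*.

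The Slit receptors *robo1*, *robo2* and *robo3* had no optimal summit in their windows. *robo2* and *robo1* missed the cutoff narrowly: their best TSS entries ranked 4058 and 4398 in the list called on all replicates together. *robo1* passed the cutoff in replicate 2 alone, at rank 3831, and *robo2* in replicate 3 alone, at 3798. *robo3* had no entry at its TSS in that joint list. *PlexB*, a second plexin, and *Eph*, the ephrin receptor, also had none, and both lie on chromosome 4, where 17.5% of genes held a summit in their window.

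Among immunoglobulin and fasciclin adhesion genes 3 of 8 held a summit in their window, against 33.7% of all genes. All but *Fas1*, at 14.5 kb, span 20 kb or more, a length at which 54.9% of all genes held a summit. *Fas3*, which encodes a homophilic adhesion protein, had the third-best summit of the set, at rank 821, in its first intron 5187 bp from the TSS. It ranked 1128, 917 and 671 in the replicates. *Fas2*, the fly relative of NCAM and a marker of axon bundles, was bound 46 bp downstream of its TSS at rank 2405. Replicates 1 and 3 ranked it at 1260 and 2411 and replicate 2 at 3910, just past the cutoff of 3866.

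*Nrg*, the fly relative of L1CAM, was bound 28 bp downstream of its first TSS at rank 3100, with ranks of 1539, 5613 and 2979, so that replicate 2 again left it out. All 5 *Nrg* TSSs lie within 1 kb of that summit. *Dscam1* to *Dscam4*, whose products give neurites a means of recognising self, had none. Their best entries anywhere in the gene windows ranked 4384, 18894, 14190 and 13099 in the joint list, so that *Dscam1* alone came near the cutoff. *Fas1*, which encodes a lipid-anchored fasciclin-domain protein, had its best TSS entry at rank 5148.

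The teneurins, large transmembrane proteins of synaptic partner matching, differed: *Ten-a* held 5 summits and *Ten-m* held 0. *Ten-a* is the longest of the 41 genes, at 292 kb, and its TSS summit lay 30 bp upstream of the third of its 5 TSSs, which starts 4 of its 11 transcripts. That summit had rank 1966, with 2181, 3124 and 1647 in the replicates. The other 4 lay in introns within 38.9 kb of one another, at ranks 2720 to 3575, and none was present in every replicate. The best TSS entry of *Ten-m* ranked 4535 in the joint list.

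Of the leucine-rich repeat adhesion genes, *caps* had 1 summit and *Con* and *trn* had 0, where 33.7% of all genes held a summit in their window. The *caps* summit lay in the first intron, 7020 bp from the TSS, at rank 2250, with 1529, 3229 and 2600 in the replicates. Its TSS passed the cutoff in the lists of replicates 1 and 3, at 2378 and 3758, but ranked 25931 in replicate 2. *trn*, the shortest of the 41 genes at 3.81 kb, passed it in replicate 3 alone, at 2856.

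Among the receptor tyrosine phosphatase genes, which act in axon steering and fasciculation, *Lar* and *Ptp99A* were bound at a TSS, *Ptp10D* was bound in its introns and *Ptp69D* was not bound. Of all genes, 22.2% were bound at a TSS and 33.7% in the window. The *Lar* summit was 93 bp upstream of the second of 4 TSSs, at rank 1398. Its ranks of 589, 2453 and 1679 in the replicates made *Lar* the strongest guidance gene TSS of replicate 1. The 2 *Ptp99A* summits, at ranks 3799 and 3810, lay on either side of the last of its 4 TSSs, 821 bp downstream and 181 bp upstream. They were the weakest TSS summits of the set, and neither was present in every replicate.

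*Ptp10D* illustrates the 1 kb limit, since its strongest summit, rank 1347, lay 1113 bp downstream of its TSS and so was not counted as TSS-bound. It ranked 934, 1450 and 1869 in the replicates. Just inside that limit were the *unc-5* summit at 853 bp and the *Ptp99A* summit at 821 bp, and just outside it, besides *Ptp10D*, were summits of *Ten-a* at 1388 bp and *lola* at 1470 bp. Another *Ptp10D* summit, at rank 2285, lay 1597 bp past the end of the gene, 35 bp from the TSS of *bif* and 346 bp from that of *Vlet*.

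*side* and *beat-Ia* encode a pair of immunoglobulin proteins through which motor axons are attracted to muscle. *side* had 1 summit, 30229 bp into the gene, at rank 1553, with 1214, 2268 and 1810 in the replicates; its TSS had no entry at all in replicates 2 and 3. *beat-Ia* had no summit, nor did *comm*, whose product sorts Robo away from the cell surface.

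All 4 genes of cytoplasmic signalling held a summit, and *dock*, *trio* and *Abl* were bound at a TSS in every replicate. Over all genes the shares were 33.7% and 15.1%, and with 4 genes nothing is read from the difference. *Abl*, the tyrosine kinase acting downstream of several guidance receptors, was bound 23 bp upstream of its single TSS at rank 1068. It ranked 827, 1085 and 1977 in the replicates. *dock*, an adaptor that links receptors to actin regulators, was bound 31 bp upstream of its TSS at rank 1482, with 1107, 2257 and 1724. The same summit was 77 bp from the TSS of *CG3862*, so the 2 promoters cannot be told apart.

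*trio*, which encodes an exchange factor, was bound 232 bp upstream of the third of its 5 TSSs, which starts 2 of its 7 transcripts, at rank 1517, with 2955, 2668 and 1029. *ena*, which promotes actin filament growth, had an intron summit at rank 907, 2835 bp from its TSS, with ranks of 736, 1435 and 940. Its TSS entry ranked 3912 in the joint list, the nearest of all guidance genes to the cutoff from outside, and passed it in replicate 1 alone. A second *Abl* summit, at rank 2039, was 37 bp from the TSS of *Mo25*.

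*lola* encodes a family of BTB zinc finger transcription factors that act in axon growth and guidance. It had the strongest summit of the 41 genes, at rank 747, 481 bp upstream of the second of its 4 TSSs, which starts 8 of its 24 transcripts. The ranks of 921, 840 and 641 were all under 1000, which held for no other TSS summit. Another *lola* summit lay 1470 bp upstream of the gene at rank 1307. One more, at rank 1798, was 9 bp from the TSS of *Pef* and 61 bp from that of *trsn*, at the other end of the gene.

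**Figure D2:**
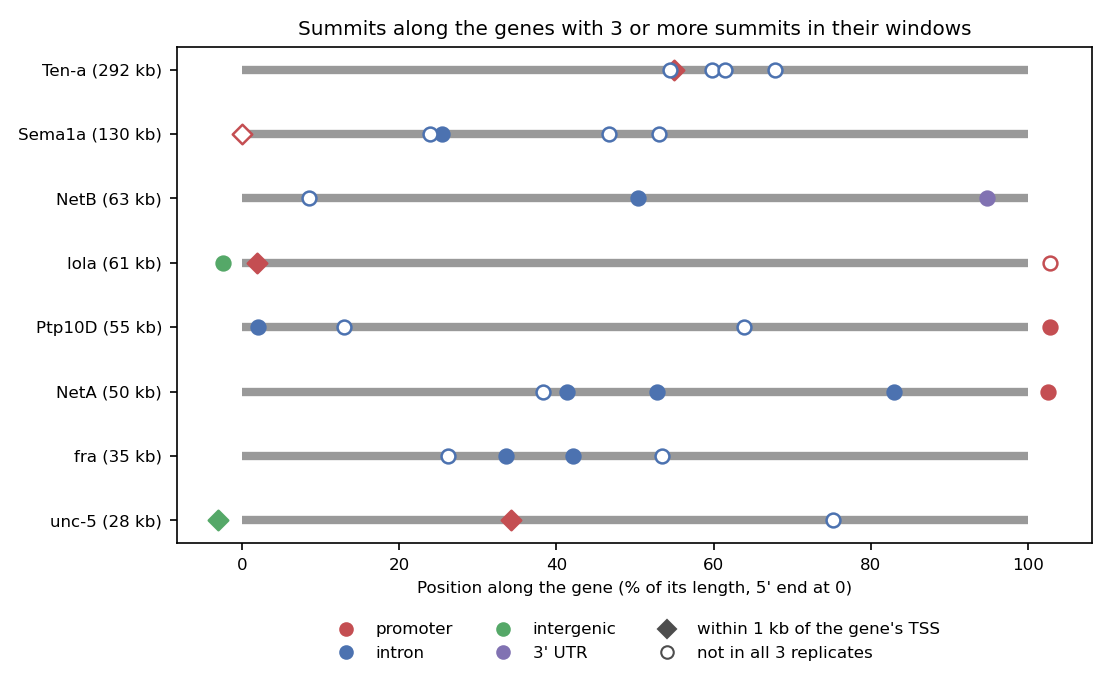
Position of each summit along the 8 guidance genes with 3 or more summits, as percent of gene length with the 5' end at 0 (x axis) and genes ordered by length. Colours and symbols give class, TSS and presence in all replicates; the 4 *fra* summits lie between 9223 and 18764 bp from the TSS, those of *Ten-a* lie within 38.9 kb of one another, and the summits past 100% at *lola*, *Ptp10D* and *NetA* are promoters of neighbouring genes.

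As the map of the 8 genes shows, summits were often far from the gene's own TSS. Of the 51, 31 lay nearest to a TSS of the guidance gene itself and 20 nearest to another gene, and 11 lay outside the annotated gene. All 14 TSS summits were nearest to the guidance gene's own TSS, 11 of them upstream and 3 downstream, at a median of 108.5 bp. Of the 17 promoter summits, 5 belonged to neighbours: *Rif1* at *sli*, *sbm* at *NetA*, *bif* at *Ptp10D*, *Mo25* at *Abl* and *Pef* at *lola*.

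Introns held 31 of the 51 summits (60.8%, interval 46.1 to 74.2%) and promoters, defined as 500 bp around the TSS of any protein-coding gene, held 17 (33.3%, interval 20.8 to 47.9%). In the whole optimal list 30.0% of summits were in introns and 54.7% in promoters. The 1260 summits in windows of genes of 20 kb or longer had 57.9% in introns and 36.0% in promoters, within the guidance genes' intervals. Over the 3 replicates' own lists, the intron share at guidance genes was 53.3% ± 6.44 (SD, n = 3). Intron summits per 100 kb of window numbered 1.35 at guidance genes and 1.34 over genes of 20 kb or longer. All summits together numbered 2.22 per 100 kb at guidance genes and 2.31 over those long genes, so per length of DNA these values were close. Over the windows of all protein-coding genes there were 1.13 intron summits and 3.48 summits of any class per 100 kb. Over the 6 arms the values were 0.867 and 2.89.

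**Figure D3:**
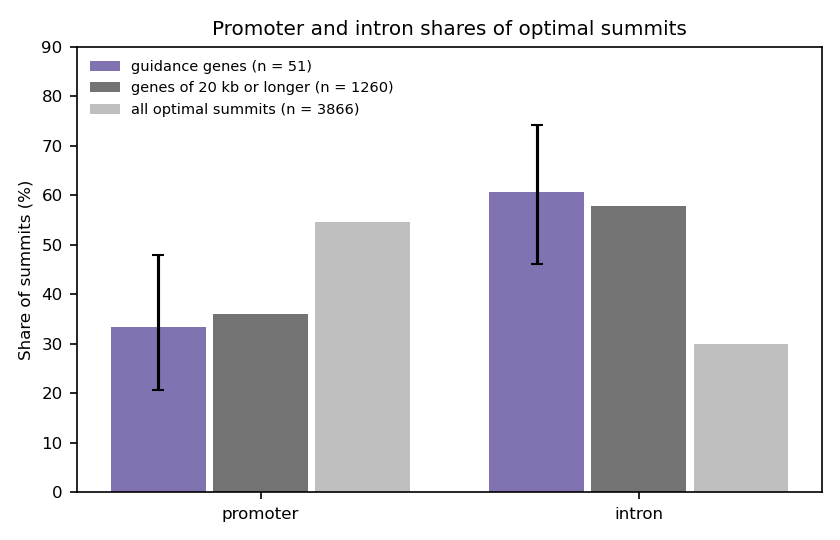
Share of optimal summits (y axis, percent) in promoters and introns for guidance genes, all genes of 20 kb or longer and the whole optimal list. Bars are shares and error lines the 95% exact binomial intervals on the 51 guidance gene summits; guidance genes had 60.8% in introns, long genes 57.9% and the whole list 30.0%.

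In the bar plot of classes, the guidance genes' intervals include the values of long genes and not those of the whole list. Of the 31 intron summits, 15 (48.4%) fell in a first intron, against 71.5% of all 1161 intron summits. First introns made up 34.8% of the guidance genes' intron bases. The median distance of the 31 from the gene's own TSS was 12.1 kb, with a range of 821 to 67663 bp. More than 5 kb from any protein-coding TSS were 20 of the 31 (64.5%), against 30.4% of all intron summits. Neither this share nor the first-intron share was set beside genes of 20 kb or longer, so gene length was not taken into account. Long genes with an intron summit and none at a TSS were 9 of 30 guidance genes (30.0%, interval 14.7 to 49.4%), against 17.8% of all genes of that length. Long guidance genes with 2 or more summits were 14 of 30 (46.7%, interval 28.3 to 65.7%), against 31.2%, and both intervals include the background.

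All 6 guidance genes on the X chromosome held a summit (*NetA*, *NetB*, *Fas2*, *Nrg*, *Ten-a* and *Ptp10D*), and they held 20 of the 51. Over all X-linked genes 33.7% did. These 6 genes span 37.8 to 292 kb, so all of them are in the long class. On chromosome 4, *PlexA* was the only 1 of 4.

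Presence in a replicate was scored as an overlap of at least 1 bp with that replicate's 3866 strongest peaks. Of the 51 summits, 28 (54.9%, interval 40.3 to 68.9%) were present in every replicate, against 64.6% of all 3866. A further 16 were present in 2 replicates, 6 in 1 and 1 in 0. Promoter summits were present in every replicate in 12 of 17 cases (70.6%), against 66.8% of all promoter summits. Intron summits were in 13 of 31 (41.9%, interval 24.5 to 60.9%), against 64.6% of all intron summits and 61.2% of those at genes of 20 kb or longer.

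The intron summits at guidance genes had a median rank of 2500, against 1920 for all intron summits and 2043.5 for those at genes of 20 kb or longer. Presence followed signal: 21 of 23 guidance summits in the upper 1933 of the list (91.3%) and 7 of 28 in the lower (25.0%) were in every replicate, against 96.5% and 32.8% of all summits. Requiring presence in every replicate left 8 of 41 guidance genes bound at a TSS (19.5%, interval 8.82 to 34.9%), against 15.1% of all genes. In the window 18 of 41 were bound (43.9%, interval 28.5 to 60.3%), against 24% of all genes. Neither share was set beside genes of 20 kb or longer, so gene length was not taken into account.

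Taken from each replicate's own strongest 3866 peaks, the number of guidance genes with a TSS summit was 13 in replicate 1, 10 in replicate 2 and 16 in replicate 3, or 31.7% ± 7.32 (SD, n = 3). The shares of all genes were 22.3%, 22.1% and 22.1%. The guidance gene shares, which rest on 41 genes, varied more over replicates than the shares of all 13945. *unc-5*, *PlexA*, *Ten-a*, *Lar*, *dock*, *trio*, *Abl* and *lola* were bound in all 3 lists. *Sema1a*, *Fas2*, *Nrg*, *caps* and *Ptp99A* were bound in 2, *robo1*, *robo2*, *Fas1*, *trn* and *ena* in 1, and 23 genes in 0.

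**Figure D4:**
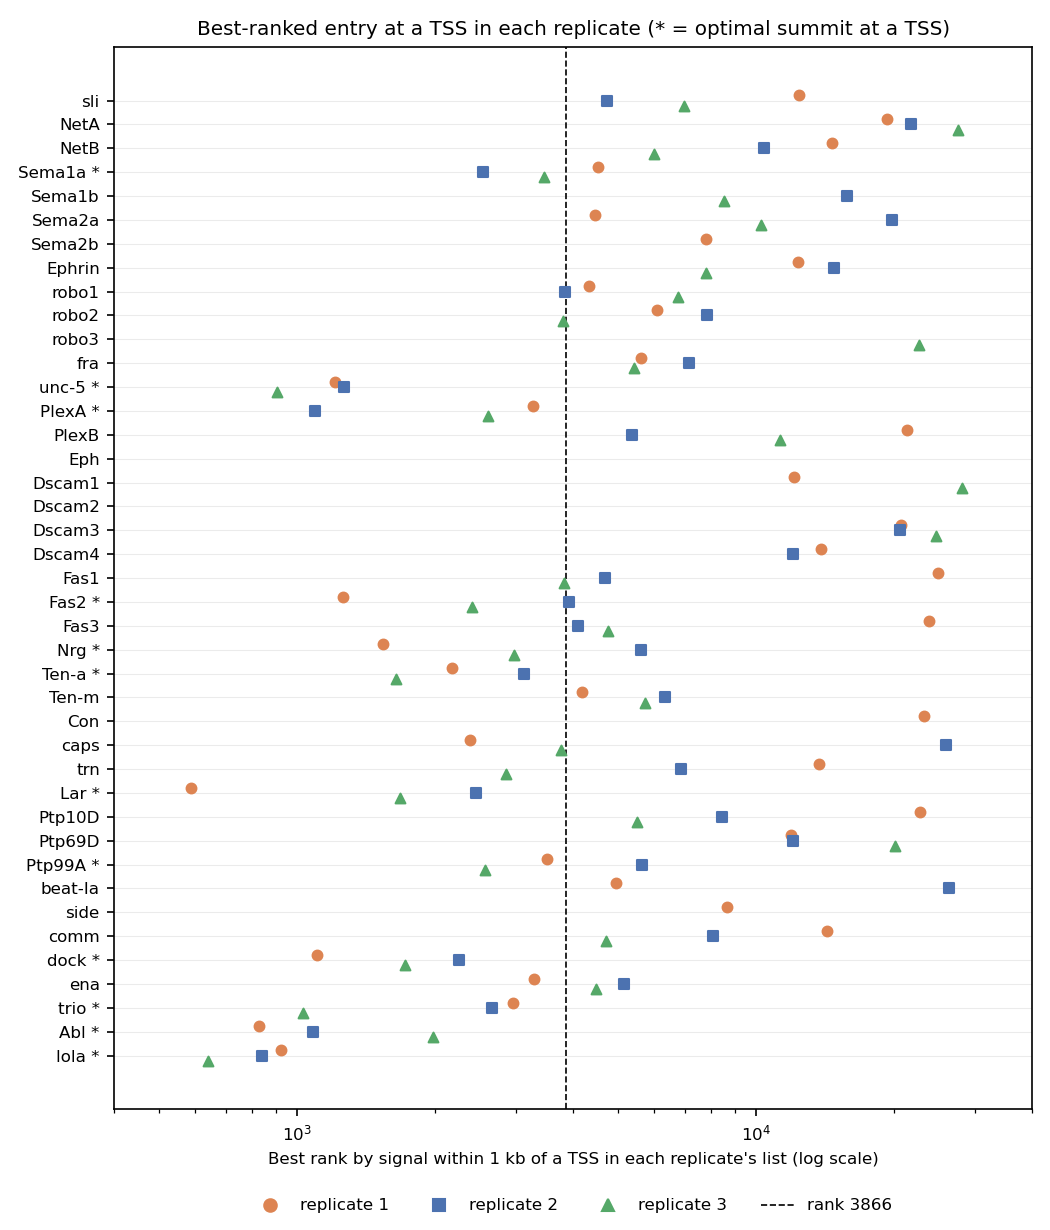
Best rank by signal (x axis, log scale) of any list entry within 1 kb of a TSS of each guidance gene, in replicates 1 to 3, with the rank of 3866 dashed and genes bound in the optimal list starred. *lola*, *Abl* and *unc-5* have all 3 points left of the line, *Fas2*, *robo1*, *robo2* and *Fas1* have points at it, and *Eph* and *Dscam2* have no entry in any replicate.

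The plot of TSS ranks by replicate also shows entries below the cutoff. The joint list holds 30000 entries, most of which are background regions. It had an entry within 1 kb of a TSS for 37 of 41 guidance genes (90.2%), at a median best rank of 6680, and for 64.0% of all genes, at a median of 15217. The 4 without an entry were *robo3*, *Eph*, *Dscam1* and *Dscam2*. Past the cutoff came *ena* at 3912, *robo2* at 4058, *robo1* at 4398, *Ten-m* at 4535, *caps* at 4908 and *trn* at 4921. Joint-list entries with a q-value under 0.01 lay at a TSS of 16 guidance genes (39.0%), against 25.8% of all genes. The 4 added were *robo1*, *robo2*, *Ten-m* and *ena*. Neither joint-list share was set beside genes of like length or number of TSSs. A single TSS was annotated for 21 of the 41 guidance genes, against 10246 of all 13945 genes.

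TAATTA occurred within 100 bp of 6 of the 51 guidance summits (11.8%, interval 4.44 to 23.9%), against 15.1% of all optimal summits. The 6 lay at *lola*, *side*, *Sema1a*, *Ptp99A* and, in 2 introns, *Ten-a*. TAATGA occurred at 12 (23.5%, interval 12.8 to 37.5%), against 12.7% of all. It was found at 6 of the 17 promoter summits (35.3%), against 11.4% of all promoter summits, and 5 of the 31 intron summits (16.1%), against 14.5%. Those promoter summits include the neighbours' promoters at *Pef* beside *lola* and *bif* beside *Ptp10D*. With 17 promoter summits and 10 motifs looked at, no difference is read from the promoter shares. TATCGATA occurred at 4, all of them promoters, which is 23.5% of the 17 guidance promoter summits, against 9.51% of all promoter summits. Those 4 were *Abl*, *dock*, *PlexA* and the *Pef* promoter beside *lola*.

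CGATAG, whose first bases overlap the end of TATCGATA where G follows it, occurred at 15.7% of guidance summits, against 13.3% of all summits. ACACTG occurred at 17.6%, against 20.7%, GAGAGA at 13.7%, against 10.7%, and CAGGTA at 3.92%, against 3.85%. Of the AT-only motifs, TTTAAA occurred at 27.5%, against 31.1% of all, TATATA at 17.6%, against 15.0%, and AATATT at 25.5%, against 26.5%. GC content of the 201 bp windows was 37.2% ± 6.97 (SD, n = 51 windows) at guidance genes and 37.5% ± 6.80 (SD, n = 3866 windows) in the whole list. A match describes the letters only, and the absence of one says nothing of the factor.

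A further 125 guidance and adhesion genes in 6 lists were bound at a TSS in 27 cases (21.6%), against the same 22.2% of all genes. They held a summit in their window in 51 (40.8%), against 33.7%. Of the 125, 65 spanned 20 kb or more, a length at which 54.9% of all genes held a summit in their window. In the list of 23 cytoplasmic signalling genes 13 (56.5%) were bound at a TSS, against 22.2% of all genes, and the list's median length was 8.86 kb. The best of these were *Mtl* at rank 77, *RhoGAP93B* at 551, the cytoskeletal linker *shot* at 565 and the microtubule-binding *chb* at 587. The *Mtl* summit was nearer to the TSS of *CG5611* and the *chb* summit to that of *Ac78C*. In that list 8 of the 13 best summits were nearest to the listed gene's own TSS.

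The 20 *beat* and *side* family genes had 0 bound at a TSS, against 22.2% of all genes, and 6 (30.0%) held a summit in their window, against 33.7%. Of these 20 genes 16 spanned 20 kb or more, a length at which 30.6% of all genes were bound at a TSS and 54.9% held a summit in their window. Of the 32 *DIP* and *dpr* genes, whose products form pairs of immunoglobulin proteins at synapses, 2 (6.25%) were bound at a TSS, against the same 22.2%: *dpr14* at rank 431 and *dpr20* at 1184. The *dpr14* summit was nearer to the TSS of *spidey*. The *DIP* and *dpr* genes had a median length of 32.5 kb, and 4 (12.5%) held a summit in their window, against 33.7% of all genes. Of these 32 genes 18 spanned 20 kb or more, the length to which the shares of 30.6% and 54.9% above refer. Genes of the beat and side families had a median length of 41.2 kb.

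Of 11 cadherin and neurexin-neuroligin genes, *Nrx-1* at rank 816, *shg* at 3085 and *CadN* at 3595 were bound at a TSS, which is 27.3%, against 22.2% of all genes. Of 23 other adhesion genes, 5 (21.7%) were, led by *Toll-7* at 412, *tutl* at 969, *ed* at 1524 and *Ama* at 2347. The 16 other ligand and receptor genes had a median length of 18.3 kb, and 7 spanned 20 kb or more. In their window 12 (75.0%) held a summit, against 33.7% of all genes and 54.9% of genes of 20 kb or longer. At a TSS 4 (25.0%) were bound, against 22.2% of all genes. The 4 were the phosphatase *Ptp4E* at rank 217, the insulin receptor gene *InR* at 250, the glypican *dlp* at 2828 and the Ryk-type receptor *drl* at 3634. The best *dlp* summit was nearer to the TSS of *RecQ5*.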

How the data were processed

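Peak lists were taken as deposited, in narrowPeak format on dm6: 1 list per biological replicate, 1 called on all 3 replicates together (the joint list) and the optimal list. Per the labels' notes, each was called against a control, which was not analysed here. Neither aligner nor peak caller is named in the sources used here. The peak signal, deposited by the authors on a scale not given, ranked peaks within a list only. The −log10 q-value column, deposited by the authors, gave entries with q under 0.01, of which there were 3527, 4276 and 4599 in replicates 1 to 3. The optimal list equalled the 3866 highest-signal entries of the joint list. Lists on dm3 were not used.

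Summits were annotated with Ensembl release 115 on Release 6, in the order promoter, 5' UTR, 3' UTR, coding exon, intron of a protein-coding gene, other exon and intergenic. A summit's peak counted as present in a replicate if it overlapped by 1 bp or more any of that replicate's 3866 highest-signal peaks. Genes, lists, motifs and windows were chosen with earlier results of these data known. The text names all 41 genes, up to 4 best-bound genes of each further list, and other genes only where a summit lay within 1 kb of their TSS or nearer to their TSS than to the guidance gene's; not every such gene is named. Scripts (Python 3.11.15, pandas 2.3.3, numpy 2.4.6, scipy 1.17.1) were tested on simulated data. Alternatives varied windows, flanks, signal threshold and replicates. The SD over replicates measures the spread between these samples.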

Additional observations from a re-analysis of the deposited data

How the results depend on the processing

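Over the alternatives run, 33 values stayed within 1.5 times the reported count, or within the interval of the reported share, and 9 did not. Without flanks, the intron share was 77.5% of 40 summits. Then 18 guidance genes (43.9%) held a summit, against 11% of all genes, where with flanks it was 51.2% against 33.7%. Guidance genes had a median length of 38.9 kb and all genes one of 2.17 kb. The shares without flanks were not set beside genes of 20 kb or longer. With the higher-signal 1933 peaks alone, 7 guidance genes were bound at a TSS (17.1%, against 12.6% of all genes) and 23 summits lay in their windows. Keeping peaks present in every replicate left 28 summits. Matching to the whole lists of the replicates made all 51 summits present in every replicate. Each whole list holds 30000 entries, of which 3527, 4276 and 4599 had a q-value under 0.01 in replicates 1 to 3. Nothing is read from that match, since such long lists overlap easily. TAATTA within 200 bp was found at 27.5% of the summits, against 25.1% of all. Leaving out each replicate in turn kept the optimal summits present in both other replicates, and no peak list was called anew. This filter gave 31 to 36 summits, the lowest without replicate 3 and 33 without replicate 2. The intron share was 45.5 to 52.8%, the lowest without replicate 2. Guidance genes bound at a TSS then numbered 9, 11 and 8 without replicates 1, 2 and 3, or 22%, 26.8% and 19.5%. The shares of all genes under the same filters were 17.8%, 16.4% and 16.2%. The intron shares under these filters were not set beside those of all summits. With a TSS window of 5 kb, 16 guidance genes were bound (39.0%), against 40.6% of all genes, so the order of the 2 shares turned; with 500 bp it was 12 (29.3%), against 19.5%. Joint-list entries with a q-value under 0.01, an alternative chosen after seeing the data, gave 16 genes. The cause of these changes was not tested. No paired analysis was possible because there was 1 group. With 41 genes and 51 summits, and depth unknown, intervals on shares are wide, and a summit near the cutoff of 3866 can fall on either side of it.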
